A study of Mus musculus with 9 samples.

Results

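The nuclear genes for subunits of the respiratory chain and of ATP synthase were followed in N1E-115 cells, a mouse neuroblastoma line, in which Tcof1 had been overexpressed or knocked down. They were chosen by name: every probe set with exactly 1 gene symbol that starts with Ndufa, Ndufb, Ndufc, Ndufs, Ndufv, Uqcr, Cox4i, Cox5, Cox6, Cox7, Cox8 or Atp5, or that is Sdha, Sdhb, Sdhc, Sdhd or Cyc1. Symbols starting with Ndufaf, which are assembly factors, were left out. This gave 151 probe sets for 80 genes, of 22626 probe sets and 12393 named genes on the array. Complex I had 34 of the genes, complex II had 4, complex III had 9, complex IV had 16 and ATP synthase, or complex V, had 17. The groups were N1E-115 cells overexpressing mouse Tcof1, N1E-115 cells with Tcof1 knocked down, and N1E-115 cells with wildtype Tcof1, each with 3 arrays of total RNA lettered A, B and C. The labels do not say how Tcof1 was raised or lowered, nor whether the letters mark separate cultures or a single clone. The p-values therefore reflect how far these particular arrays scatter, and that scatter may be technical.

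The respiratory chain lies in the inner mitochondrial membrane. Complex I takes electrons from NADH and complex II from succinate. Both pass them through ubiquinone to complex III, which hands them by way of cytochrome c to complex IV, where oxygen is reduced. Complexes I, III and IV pump protons, and ATP synthase uses the returning protons to make ATP. Each complex except II also has subunits encoded in mitochondrial DNA. None of those was measured by a named probe set here (0 of 13), so only the nuclear share of each complex can be described.

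Treacle, the product of Tcof1, acts in ribosomal RNA synthesis, and its own 3 probe sets checked the overexpressed label but not the knockdown label. The overexpressed over wildtype log2 fold changes were 0.87 ± 0.21 (adjusted p = 0.0241), 0.63 ± 0.20 and 0.39 ± 0.17, of which the first alone passed. Knockdown over wildtype gave -0.22 ± 0.21 (adjusted p = 0.744), -0.40 ± 0.20 and 0.06 ± 0.17, and no probe set passed. The neuronal identity of the line was clear, with 14 of 15 measured sympathoadrenal and neuronal markers above the median brightness. Their summed intensity was 39812.5 to 43598.7 in overexpressed, 49443.3 to 52239.4 in knockdown and 47721.8 to 51071.2 in wildtype arrays. Of 9 fibroblast markers, 2 were above the median, with sums of 3659.4 to 3981.9, 5203.6 to 5694.2 and 5158.3 to 5575.6 in the same order. Of 6 Schwann cell and glia markers 2 were above it, with sums of 595.7 to 761.3, 781.7 to 948.9 and 870.7 to 1023.2. Of 8 blood and immune cell markers 2 were above it, with sums of 996.2 to 1071.5, 1495.3 to 1633.2 and 1598.3 to 1734.8. All 4 sums were lowest in the overexpressed arrays, and their part in the subunit results was not tested. In bulk RNA, fewer cells of a type and less RNA per cell cannot be told apart.

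Most subunit transcripts were bright and differed little between the groups. Of the 151 probe sets, 133 were brighter than the median probe set of the array. The median size of change over the 80 genes, regardless of sign, was 0.11 on the log2 scale in overexpressed over wildtype, 0.12 in knockdown over wildtype and 0.15 in overexpressed over knockdown. Over all genes these medians were 0.23, 0.17 and 0.24. Over the genes brighter than the median, a comparison added after the values were seen, they were 0.23, 0.15 and 0.22. By their brightest probe sets, 1, 0 and 2 of the 80 genes differed by more than 1.5-fold. By the brightest probe set of each gene, the median standard error of a log2 fold change was 0.10 for the subunit genes. It was 0.14 for the genes brighter than the median and 0.20 for all genes.

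In overexpressed over wildtype cells 3 subunit probe sets rose and 2 fell. Those that rose belonged to Ndufa2, Ndufb2 and Ndufv2 of complex I, and those that fell to Ndufv3 of complex I and Cox7a1 of complex IV. These 5 were 3.31% of the subunit probe sets, against 9.59% of all probe sets tested, 4.52% higher and 5.07% lower. Of the named probe sets brighter than the median, 16.8% were called. The share of higher calls among the subunit calls was 60%, and 33.3% after quantile normalization or with a common array median. The median over the 80 genes was -0.02, beside -0.03 over all genes, with 37 above 0 and 43 below. This median was above 0 under both other scalings, at 0.0049 and 0.0123, so it has no settled direction. Leaving out overexpressed array A or B, knockdown array A or wildtype array A gave 3 calls, leaving out wildtype B gave 2 and wildtype C gave 8. The overexpressed and wildtype arrays did not overlap in 27.2% of the subunit probe sets, 21 above and 20 below. Of all probe sets it was 27.8%, and of the brighter ones 40.7%.

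In knockdown over wildtype cells 0 of the 151 subunit probe sets passed, against 0.0133% of all probe sets, or 3 of 22626, with 0.00442% higher and 0.00884% lower. The smallest adjusted p by limma was 0.173, for Ndufb3. At an unadjusted p under 0.05 there were 23 subunit probe sets, or 15.2%, against 10.9% of all probe sets. Of the 10440 named probe sets brighter than the median it was 14.8%, so the share of the subunits was near that of bright probe sets. Each of the 23 was higher in knockdown cells, while the brighter probe sets were split, with 760 higher and 790 lower. The median over the 80 genes was 0.11, beside 0.04 over all genes and 0.01 over the genes brighter than the median. Of the 80 genes, 62 were above 0, or 77.5%, against 57.3% of all genes and 52.5% of the brighter ones. The 3 knockdown arrays did not overlap the 3 wildtype arrays in 38 probe sets, 36 above and 2 below. That was 25.2% of the subunit probe sets, against 15.6% of all, of which 8.63% were above and 7.01% below. Of the brighter probe sets it was 19.5%, with 987 above and 1053 below.

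In overexpressed over knockdown cells 7 subunit probe sets fell and 0 rose. They belonged to Ndufv3, Ndufb3, Ndufb11 and Ndufc1 of complex I, Uqcr11 of complex III, Cox7a1 of complex IV and Atp5g2 of ATP synthase. They were 4.64% of the subunit probe sets, against 7.57% of all probe sets, 3.43% higher and 4.14% lower. Of the named probe sets brighter than the median, 13.1% were called. Of the 80 genes 21 were above 0 and 59 below, and of the genes brighter than the median 47.7% were above 0. The median over the 80 genes was -0.11, beside -0.08 over all genes and -0.02 over the brighter ones. With a common array median it was -0.05, with 35 genes above 0 and 45 below, and 3 probe sets passed. Leaving out overexpressed array A or knockdown array B gave 3 calls, and leaving out knockdown array A or C gave 4. Without knockdown array C, 1 of the 4 was higher, an _x_at probe set of Ndufa7 at 1.84 (adjusted p = 0.0423), named after its value was seen. The groups did not overlap in 40 subunit probe sets, 8 above and 32 below, or 26.5%, against 28.1% of all probe sets, 12.9% above and 15.2% below. Of the brighter probe sets 39.9% did not overlap, with 2144 above and 2021 below. Each pair of comparisons shares 3 arrays, so the values below are given side by side and the comparisons do not support each other.

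**Figure D1:**
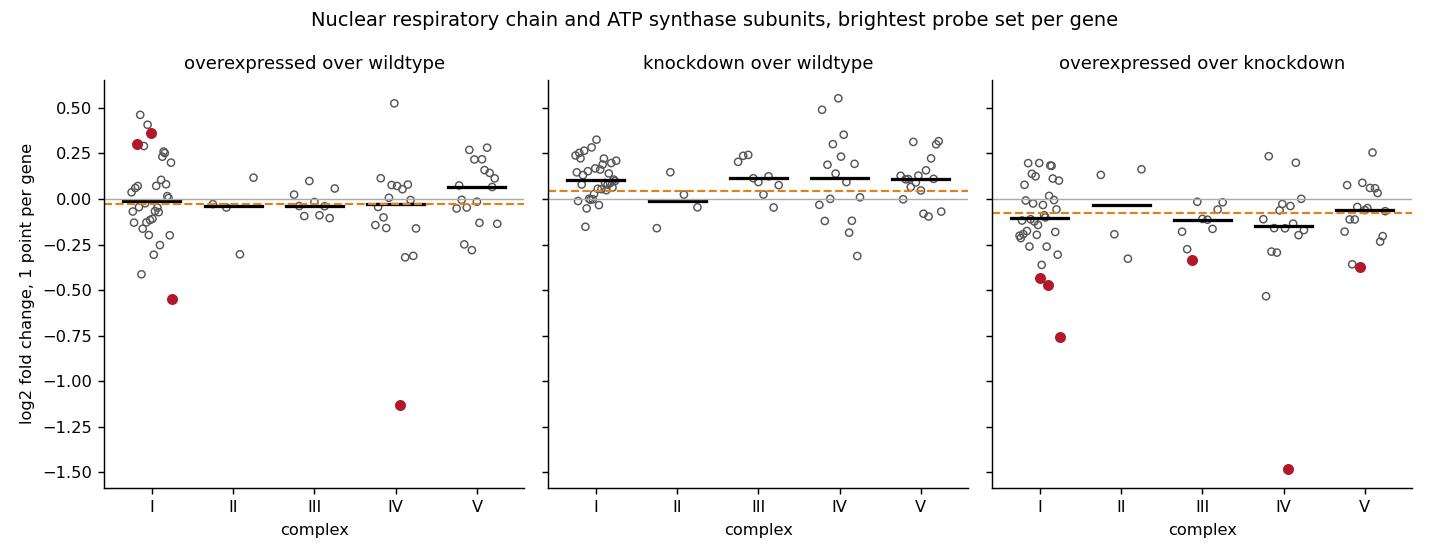
Log2 fold change of each of the 80 subunit genes, by its brightest probe set, for the 3 comparisons and split by complex. Filled red points passed the test, black bars are the median of each complex and the orange dashed line is the median of all genes. Most points lie within 0.5 of 0, and Cox7a1 is the lowest point of complex IV in overexpressed over wildtype and overexpressed over knockdown.

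The subunit level was also taken on each array. The median over the 80 genes of the log2 value minus the gene's mean over 9 arrays was -0.03, -0.03 and -0.04 in overexpressed arrays A, B and C, 0.09, 0.01 and 0.09 in knockdown arrays, and -0.06, -0.05 and -0.03 in wildtype arrays. The 3 knockdown arrays were above the other 6, and knockdown array B was the lowest of the 3. Without knockdown array A the median of overexpressed over knockdown was -0.08. Over all genes the same measure was -0.06, 0.02 and -0.03 in overexpressed, 0.05, 0.08 and -0.02 in knockdown and -0.01, 0.03 and -0.01 in wildtype arrays, and these groups overlapped. Knockdown array B was the highest of the 9 arrays by this all-gene measure. Its subunit median of 0.01 was below its own medians over all genes, 0.08, and over the brighter genes, 0.04. Knockdown array C went the other way, at -0.02 over all genes and 0.09 over the subunits. How far the level of each array shapes the order of the subunit medians was not tested. By moderated F over the 3 groups, 7 subunit probe sets differed, or 4.64%, against 9.2% of all. That count was 3 without overexpressed array A or C, and 4 without overexpressed array B, knockdown array A or C, or wildtype array B.

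**Figure D2:**
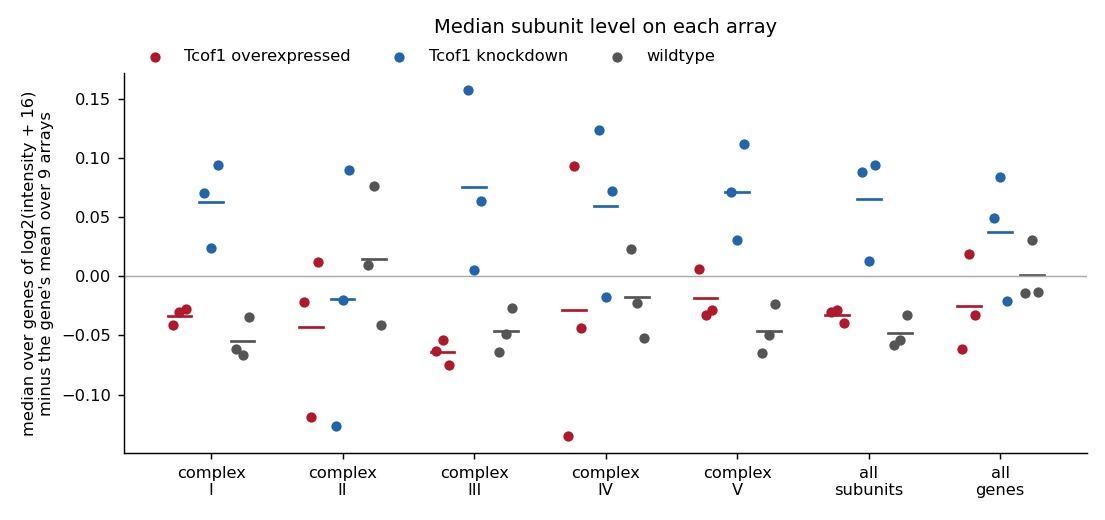
Median over genes of the log2 value minus the gene's mean over 9 arrays, for each complex, all 80 subunit genes and all genes. Each point is an array, in red for overexpressed, blue for knockdown and grey for wildtype, and the short lines are group means. For all subunits the knockdown points, at 0.01 to 0.09, lie above those of the other groups.

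Promoters of respiratory chain genes are known for sites of NRF-1, of the ETS factor GABP and of YY1. RefSeq windows of GRCm38.p6, 250 bases before to 50 after the start, were at hand for 65 of the 80 genes. Searched on both strands, GCGCATGC for NRF-1 stood in 13.8% of these genes and in 5.01% of 9883 genes of the array with a window. AAGATGGC for YY1 stood in 13.8% and 4.39%, and CCGGAAGT for ETS in 7.69% and 7.23%. At least 1 of the 3 was found in 33.8% of the subunit genes and in 15.5% of the genes of the array. A match describes letters and shows no binding. Of the 7 genes lower in overexpressed than in knockdown cells, 3 held a match. Their windows are shown because these transcripts passed the test in 1 direction, with the matches in capitals and the coordinates and strand ahead of each.

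On the minus strand, the Uqcr11 window (chr10:80406772-80407071) held ETS letters 66 bases and NRF-1 letters 4 bases before the start. That of Atp5g2 (chr15:102670998-102671297, minus strand) held 2 overlapping NRF-1 matches, from -42 and -40. That of Ndufc1 (chr3:51408906-51409205, minus strand) held YY1 letters from base 23 after the start.
Uqcr11: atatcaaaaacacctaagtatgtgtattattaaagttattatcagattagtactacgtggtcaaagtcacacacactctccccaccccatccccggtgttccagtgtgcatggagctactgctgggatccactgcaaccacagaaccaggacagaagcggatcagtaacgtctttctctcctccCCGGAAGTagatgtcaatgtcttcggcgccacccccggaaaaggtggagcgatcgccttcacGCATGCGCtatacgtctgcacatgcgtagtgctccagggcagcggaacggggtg
Atp5g2: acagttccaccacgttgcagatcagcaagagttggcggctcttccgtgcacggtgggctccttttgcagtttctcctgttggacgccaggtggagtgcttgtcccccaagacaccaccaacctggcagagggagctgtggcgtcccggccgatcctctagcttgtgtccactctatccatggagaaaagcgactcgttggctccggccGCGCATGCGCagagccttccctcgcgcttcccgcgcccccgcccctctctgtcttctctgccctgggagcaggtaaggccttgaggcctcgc
Ndufc1: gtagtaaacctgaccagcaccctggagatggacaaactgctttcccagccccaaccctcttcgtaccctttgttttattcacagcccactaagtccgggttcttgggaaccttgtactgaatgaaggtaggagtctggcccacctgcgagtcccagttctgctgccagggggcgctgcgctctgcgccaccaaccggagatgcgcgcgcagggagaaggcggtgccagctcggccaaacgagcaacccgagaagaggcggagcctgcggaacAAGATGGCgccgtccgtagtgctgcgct

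The windows of Ndufv3 (chr17:31519865-31520164, plus strand) and Cox7a1 (chr7:30183921-30184220, plus strand) are shown because these 2 genes had the largest called changes. None of the 3 letter strings stands in them.
Ndufv3: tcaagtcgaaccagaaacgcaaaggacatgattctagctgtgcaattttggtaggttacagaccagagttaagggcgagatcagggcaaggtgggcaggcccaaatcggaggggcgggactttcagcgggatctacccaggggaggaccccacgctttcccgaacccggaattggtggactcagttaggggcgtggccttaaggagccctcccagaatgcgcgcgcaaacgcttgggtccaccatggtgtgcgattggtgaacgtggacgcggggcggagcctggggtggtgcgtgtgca
Cox7a1: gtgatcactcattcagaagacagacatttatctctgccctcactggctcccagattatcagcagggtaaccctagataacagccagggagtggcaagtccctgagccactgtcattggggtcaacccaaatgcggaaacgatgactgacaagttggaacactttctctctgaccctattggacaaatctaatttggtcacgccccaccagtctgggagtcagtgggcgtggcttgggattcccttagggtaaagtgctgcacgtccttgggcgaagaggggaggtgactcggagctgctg

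Complex I oxidises NADH at its peripheral arm, where Ndufv1, Ndufv2 and Ndufv3 form the flavoprotein part. Ndufv3, an accessory subunit of that part, was the most reduced transcript of the complex. It read 3911.7, 3832.9 and 4583.6 intensity units in overexpressed arrays, 7065.5, 6655.4 and 7115.7 in knockdown arrays, and 5776.5, 6218.7 and 6010.0 in wildtype arrays. The 3 groups did not overlap, with the overexpressed arrays lowest. It fell in both comparisons of overexpressed cells, at -0.55 ± 0.09 over wildtype (adjusted p = 0.00362) and -0.76 ± 0.09 over knockdown (adjusted p = 0.00103) on the log2 scale. Knockdown over wildtype was 0.21 ± 0.09 (adjusted p = 0.419). Both calls held in each of 18 alternative settings, every left-out array included. With a further limit of 1.5-fold, counted apart from those 18, the call over wildtype was lost and the call over knockdown held.

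Ndufv2, a core subunit with an iron-sulfur cluster, went the other way on 1 of its 3 probe sets. The set of type _x_at, which can match other transcripts, read 4153.9, 3914.1 and 4516.3 in overexpressed arrays, 3513.4, 3424.6 and 3897.9 in knockdown arrays, and 2845.1, 3119.1 and 3639.1 in wildtype arrays. Overexpressed arrays were above all wildtype arrays, by 0.39 ± 0.10 (adjusted p = 0.0387). The brightest set gave 0.20 ± 0.10 (adjusted p = 0.252) and the third 0.27 ± 0.09 (adjusted p = 0.0905). The call was lost in 8 of 17 settings (adjusted p = 0.0564 to 0.129), among them without any 1 overexpressed array, knockdown array A, or wildtype array A or B. Ndufv1, the core subunit that binds NADH and the flavin, was below 0 on all 3 probe sets in overexpressed over wildtype, at -0.20 to -0.29 (adjusted p = 0.137 to 0.287).

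Ndufa2 is an accessory subunit of the peripheral arm, measured by 1 probe set of type _s_at. It read 1907.8, 1848.7 and 1737.4 in overexpressed arrays, 1685.8, 1804.1 and 1711.8 in knockdown arrays, and 1509.8, 1370.8 and 1574.2 in wildtype arrays. The wildtype arrays were the lowest 3 of the 9. It rose by 0.30 ± 0.08 in overexpressed over wildtype (adjusted p = 0.0476), while knockdown over wildtype was 0.22 ± 0.08 (adjusted p = 0.372). This call did not hold in 13 of 17 settings (adjusted p = 0.0509 to 0.184), and without any 1 array other than wildtype array C.

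The core subunits of the Ndufs kind carry most of the iron-sulfur clusters of complex I. All 6 measured Ndufs genes, core and accessory, were above 0 in overexpressed over wildtype by their brightest probe sets, with a median of 0.16. Of all genes 46.5% were above 0. The same 6 were above 0 in knockdown over wildtype, with a median of 0.08, against 57.3% of all genes. Both counts were 6 under both other scalings as well, and 0 of the genes passed. In overexpressed over knockdown 3 of 6 were above 0, and 5 of 6 with a common array median. Ndufs1, the largest of these subunits, read 1784.8, 1803.6 and 1840.3 in overexpressed arrays, 1551.6, 1563.2 and 1660.1 in knockdown arrays, and 1425.1, 1563.1 and 1633.5 in wildtype arrays. The overexpressed arrays were above the other 6, by 0.23 ± 0.08 over wildtype (adjusted p = 0.105). Ndufs3, another core subunit, gave 0.26 ± 0.12 (adjusted p = 0.206).

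The Ndufb and Ndufc proteins are accessory subunits of the membrane arm, the part that pumps protons. By their brightest probe sets, 8 of 10 Ndufb genes were below 0 in overexpressed over knockdown, with a median of -0.12. Below 0 were also 59% of all genes and 59 of the 80 subunit genes. With a common array median 7 of 10 Ndufb genes were below 0, with a median of -0.06, against 52.9% of all genes. The Ndufa genes were alike as deposited, with 3 of 13 above 0 and a median of -0.12. Ndufb3 read 1619.9, 1735.4 and 1628.2 in overexpressed arrays, 2283.7, 2145.7 and 2320.5 in knockdown arrays, and 1795.8, 1756.0 and 1822.6 in wildtype arrays. The 3 groups did not overlap, with knockdown highest. It fell by 0.43 ± 0.08 in overexpressed over knockdown (adjusted p = 0.00807). The differences from wildtype were -0.11 ± 0.08 in overexpressed cells (adjusted p = 0.462) and 0.33 ± 0.08 in knockdown cells (adjusted p = 0.173). Of 18 settings, 1 ended the call, without the mean-variance trend (adjusted p = 0.058).

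Ndufb2 rose in overexpressed cells. Its brightest probe set read 2594.0, 2504.9 and 2652.0 in overexpressed arrays, 2264.1, 2335.9 and 2156.5 in knockdown arrays, and 2110.4, 1954.1 and 1946.4 in wildtype arrays. The groups did not overlap, and overexpressed over wildtype was 0.36 ± 0.08 (adjusted p = 0.0132). Its other probe set, of type _x_at, overlapped between groups at 0.21 ± 0.12 (adjusted p = 0.356). The call was lost without the mean-variance trend (adjusted p = 0.0825) and without wildtype array B (adjusted p = 0.0629).

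Ndufb11 passed on 1 of 3 probe sets in overexpressed over knockdown. That set read 2723.4, 2759.9 and 2816.6 in overexpressed arrays, 3406.6, 3940.4 and 3894.7 in knockdown arrays, and 3364.1, 2805.4 and 3230.2 in wildtype arrays. Knockdown arrays were above all others, and overexpressed over knockdown was -0.43 ± 0.09 (adjusted p = 0.0194). The brightest set gave -0.14 ± 0.11 (adjusted p = 0.479) and the third -0.22 ± 0.10 (adjusted p = 0.207). In 6 of 18 settings the call was lost (adjusted p = 0.0597 to 0.0878), among them without overexpressed array A or B or knockdown array B or C.

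Ndufc1 read 2448.9, 3053.8 and 2594.0 in overexpressed arrays, 3758.1, 3596.9 and 3871.4 in knockdown arrays, and 2902.9, 3116.8 and 3640.0 in wildtype arrays on its brightest probe set. Overexpressed and knockdown arrays did not overlap, and wildtype lay between and overlapped both. Overexpressed over knockdown was -0.47 ± 0.11 (adjusted p = 0.0243), and -0.29 ± 0.08 on its other probe set (adjusted p = 0.0592). The call was lost in 7 of 18 settings (adjusted p = 0.0556 to 0.0985), among them without overexpressed array A or C or any 1 knockdown array. Ndufa10, an accessory subunit of the membrane arm, had the second smallest p of the complex in knockdown over wildtype on a dim probe set. It read 47.0, 65.3 and 65.5 in knockdown arrays and 18.3, 28.1 and 23.9 in wildtype arrays, which gave 0.93 ± 0.26 (adjusted p = 0.255). Its brightest probe set gave 0.15 ± 0.08 (adjusted p = 0.564).

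**Figure D3:**
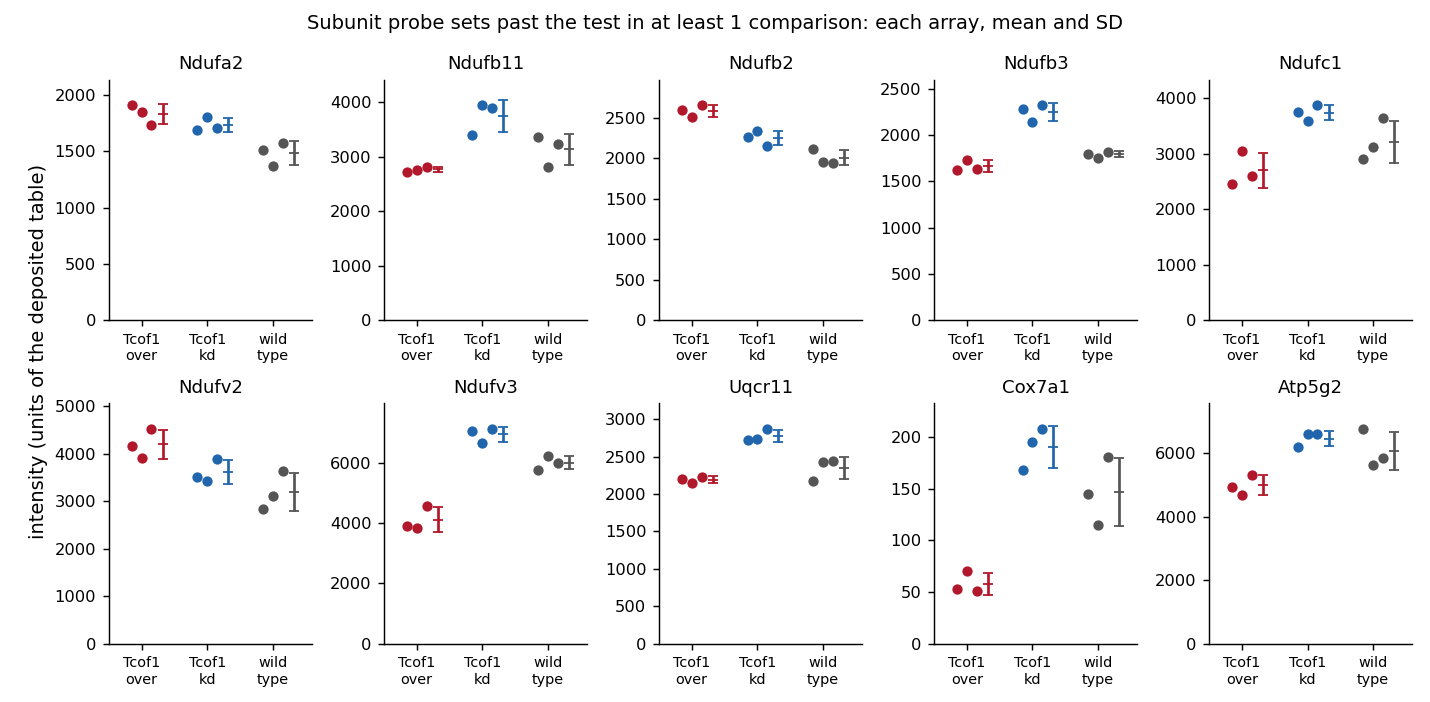
Intensity on each array of the 10 subunit probe sets that passed the test in at least 1 of the 3 comparisons, with overexpressed in red, knockdown in blue and wildtype in grey. Bars are the mean and SD of 3 arrays and every axis starts at 0. Ndufv3 and Cox7a1 are lowest in the overexpressed arrays, and Ndufb3 is highest in the knockdown arrays.

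Complex II, succinate dehydrogenase, also belongs to the citrate cycle, and 0 of its 7 probe sets passed in any comparison as fitted. Sdhb, the iron-sulfur subunit, read 12000.1, 13167.3 and 13011.3 in overexpressed arrays, 15471.1, 14308.9 and 13906.2 in knockdown arrays, and 12681.6, 13842.7 and 12914.6 in wildtype arrays. Knockdown arrays were above the other 6, by 0.15 ± 0.09 over wildtype (adjusted p = 0.569). Sdhc, a membrane anchor, was lower in overexpressed than in wildtype arrays without overlap on 1 of 2 probe sets, at -0.34 ± 0.10 (adjusted p = 0.0549), and its brightest set gave -0.30 ± 0.18 (adjusted p = 0.353). The first set passed in 5 of 18 settings, which were those above the 40th percentile of brightness, with quantile normalization, with array weights, and without knockdown array B or C (adjusted p = 0.0324 to 0.0449). Over knockdown it was -0.35 ± 0.10 (adjusted p = 0.0606) and passed in 2 of 18, above the 40th percentile and with quantile normalization. The 2 probe sets of Sdha, the flavoprotein that oxidises succinate, gave -0.03 ± 0.09 and 0.26 ± 0.10 in overexpressed over wildtype (adjusted p = 0.913 and 0.131). The median over the 4 genes was -0.04 in overexpressed over wildtype, -0.01 in knockdown over wildtype and -0.03 in overexpressed over knockdown.

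All 9 genes of complex III, the cytochrome bc1 complex, were below 0 in overexpressed over knockdown by their brightest probe sets, between -0.34 and -0.02, with a median of -0.11, beside -0.08 over all genes, of which 59% were below 0. With quantile normalization 7 of 9 were below 0, with a median of -0.10, and with a common array median 6 of 9, with a median of -0.05. Against wildtype, 8 of 9 were above 0 in knockdown cells, with a median of 0.11, and 3 of 9 in overexpressed cells, with a median of -0.04, and with a common array median these counts were 7 and 4 of 9. Uqcr11, a small subunit of the complex, read 2200.1, 2145.5 and 2232.1 in overexpressed arrays, 2717.5, 2733.7 and 2864.8 in knockdown arrays, and 2174.6, 2419.9 and 2437.3 in wildtype arrays. Knockdown arrays were above the other 6. Overexpressed over knockdown was -0.34 ± 0.08 (adjusted p = 0.0253), the 1 call of the complex, and knockdown over wildtype was 0.24 ± 0.08 (adjusted p = 0.302). Of 18 settings, 8 ended the call (adjusted p = 0.0572 to 0.145), among them without any 1 overexpressed or knockdown array.

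Uqcr10, another small subunit, had a like order on its brightest probe set, with 2552.2, 3263.1 and 2977.5 in overexpressed arrays, 3476.7, 3621.6 and 3505.7 in knockdown arrays, and 2987.5, 3033.2 and 2968.6 in wildtype arrays. Overexpressed over knockdown was -0.28 ± 0.09 (adjusted p = 0.100). Its 2 dimmer probe sets gave -0.02 ± 0.36 and -0.23 ± 0.18. Cyc1, cytochrome c1, read 12802.2, 12068.4 and 12402.7 in overexpressed arrays, 15243.5, 13576.3 and 13460.8 in knockdown arrays, and 11700.0, 12327.5 and 12638.6 in wildtype arrays. The knockdown arrays were again the highest 3, with 0.20 ± 0.08 over wildtype (adjusted p = 0.417). Uqcrh, the hinge protein between cytochrome c1 and cytochrome c, was the 1 gene of the complex below 0 in knockdown over wildtype, at -0.05 ± 0.08 (adjusted p = 0.886).

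Complex IV, cytochrome c oxidase, has several subunits that exist as paralogs for different tissues. Cox7a1, the heart and muscle form of subunit 7a, had the largest changes in overexpressed cells among the 80 genes by their brightest probe sets. It read 53.2, 70.1 and 50.7 in overexpressed arrays, 168.1, 195.0 and 207.8 in knockdown arrays, and 145.4, 115.2 and 181.1 in wildtype arrays. The overexpressed arrays were below the other 6, while knockdown and wildtype overlapped. Its log2 fold change was -1.13 ± 0.23 in overexpressed over wildtype (adjusted p = 0.0114) and -1.48 ± 0.23 in overexpressed over knockdown (adjusted p = 0.00435), so it fell in both. Both calls held in each of 18 alternative settings, and with the 1.5-fold limit. Its 1 probe set was dim, at percentile 44.0 of brightness, and the added 16 units understate its change.

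Cox7a2, the widely expressed paralog of Cox7a1, did not pass. Its brightest probe set read 12193.2, 12374.3 and 11934.2 in overexpressed arrays, 13093.7, 11482.5 and 12985.1 in knockdown arrays, and 12268.5, 11616.9 and 11297.1 in wildtype arrays, and the groups overlapped. Overexpressed over wildtype was 0.05 ± 0.08 (adjusted p = 0.798). A dimmer probe set of Cox7a2 gave 0.15 in overexpressed over wildtype (adjusted p = 0.241) and 0.19 in knockdown over wildtype (adjusted p = 0.392). Cox7a2l, a related protein that helps join complexes III and IV into supercomplexes, gave -0.32 ± 0.12 in overexpressed over wildtype (adjusted p = 0.130). Its wildtype arrays read 4650.0, 4020.2 and 3171.9, and without wildtype array C it passed (adjusted p = 0.00917).

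The other tissue-restricted or oxygen-responsive forms did not pass. Cox4i2, the oxygen-responsive paralog of Cox4i1, read 187.2, 341.7 and 215.3 in overexpressed arrays, 425.6, 350.0 and 299.7 in knockdown arrays, and 236.0, 237.4 and 272.6 in wildtype arrays. Knockdown arrays were above all wildtype arrays, by 0.49 ± 0.22 (adjusted p = 0.448), while Cox4i1 gave -0.03 ± 0.14. In overexpressed over wildtype, Cox6a2 gave 0.01 ± 0.29 and Cox8c -0.16 ± 0.20. Cox6b2, at 0.53 ± 0.38, and Cox8b, at -0.31 ± 0.24, read under 80 units on all arrays, below the median brightness. Cox6b1, the common form of subunit 6b, was higher in both altered groups than in wildtype without overlap on both of its probe sets, at 0.08 to 0.20 in overexpressed and 0.14 to 0.23 in knockdown cells, and neither difference passed. Cox5b had 6 probe sets, and 0 of them passed, but without overexpressed array B the brightest passed in overexpressed over knockdown (adjusted p = 0.0473, against 0.133 with all arrays). Ndufa4, named as a complex I subunit but also found in complex IV, gave -0.04 ± 0.11 in overexpressed over wildtype and 0.13 ± 0.11 in knockdown over wildtype.

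**Figure D4:**
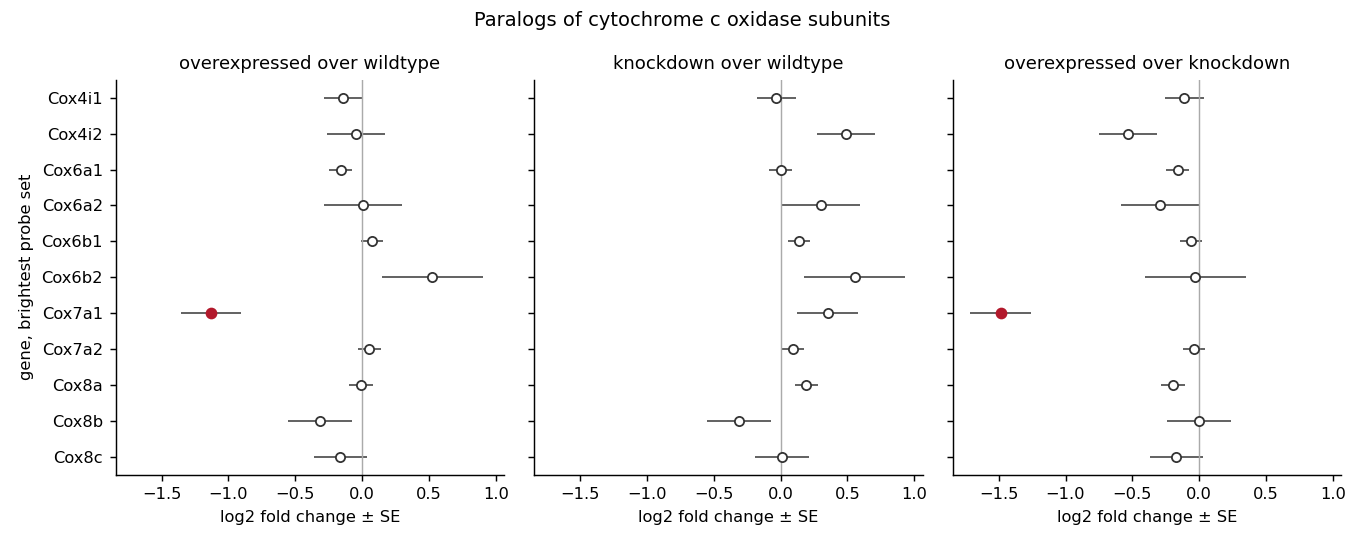
Log2 fold change ± SE of the paralogs of 5 cytochrome c oxidase subunits, by brightest probe set, in the 3 comparisons. Filled red points passed the test. Cox7a1 stands at -1.13 in overexpressed over wildtype and -1.48 in overexpressed over knockdown, and Cox7a2 at 0.05 and -0.04.

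ATP synthase turns a ring of c subunits to drive its catalytic head. The genes Atp5g1, Atp5g2 and Atp5g3 encode the same mature c subunit from different precursors. Of the 3, Atp5g2 alone passed in any comparison as fitted. Atp5g2 read 4945.3, 4691.0 and 5324.0 in overexpressed arrays, 6177.9, 6591.9 and 6586.1 in knockdown arrays, and 6752.3, 5635.1 and 5830.6 in wildtype arrays. The overexpressed arrays were the lowest 3. Overexpressed over knockdown was -0.37 ± 0.09 (adjusted p = 0.0335) and overexpressed over wildtype -0.28 ± 0.09 (adjusted p = 0.0822, and 0.048 above the 40th percentile). The call was lost in 7 of 18 settings (adjusted p = 0.0661 to 0.155), among them without overexpressed array A or B or any 1 knockdown array, and a second, dim probe set gave -0.02 ± 0.31.

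Atp5g3 read 15139.5, 16301.2 and 16074.2 in overexpressed arrays, 15510.2, 14839.8 and 14330.7 in knockdown arrays, and 13214.7, 13768.7 and 13880.4 in wildtype arrays. Its wildtype arrays were the lowest 3, and overexpressed over wildtype was 0.22 ± 0.08 (adjusted p = 0.127, and 0.0411 above the 40th percentile). Atp5g1 gave 0.27 ± 0.11 in overexpressed over wildtype (adjusted p = 0.162) and 0.31 ± 0.11 in knockdown over wildtype (adjusted p = 0.337). Any difference in response among the 3 genes was not tested.

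Among the stalk subunits, Atp5d of the central stalk was lower in overexpressed than in wildtype arrays without overlap on both probe sets, at -0.32 ± 0.10 and -0.25 ± 0.11 (adjusted p = 0.0607 and 0.202), and the first passed above the 40th percentile of brightness (adjusted p = 0.0373) and with quantile normalization (adjusted p = 0.0407). Atp5pb of the peripheral stalk gave -0.31 ± 0.09 in overexpressed over knockdown on 1 of 2 probe sets (adjusted p = 0.0566, and 0.0432 above the 40th percentile), and -0.07 ± 0.10 on the brighter. Atp5o, also of the peripheral stalk, read 7095.0, 7981.5 and 7684.8 in knockdown arrays and 5910.1, 6014.7 and 6319.2 in wildtype arrays on its brightest probe set. Those groups did not overlap, at 0.32 ± 0.09 (adjusted p = 0.271). Its dimmer _x_at set gave -0.15 ± 0.29. Atp5mpl, a small membrane subunit, gave 0.30 ± 0.08 in knockdown over wildtype (adjusted p = 0.233). The catalytic subunits Atp5a1 and Atp5b gave -0.05 ± 0.08 and 0.07 ± 0.09 in overexpressed over wildtype.

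Of the 44 genes with several probe sets, all probe sets of a gene had the same sign in 25 genes in overexpressed over wildtype, 23 in knockdown over wildtype and 31 in overexpressed over knockdown. The rest had mixed signs, so the direction of a small difference on 1 probe set is uncertain. Sets of type _x_at, 26 of the 151, and of type _s_at, 16 of them, can also match near-identical transcripts.

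Genes that assemble the complexes or feed electrons into them are given beside the subunits. In overexpressed over wildtype cells, 3 of 38 assembly factor genes rose and 5 fell, 2 of 15 genes of electron carriers and entry enzymes rose and 1 fell, and 2 of 16 citrate cycle and pyruvate dehydrogenase genes fell. The shares of probe sets called were 14.8%, 18.2% and 10.7%. The background was 9.59% of all probe sets, and 16.8% of the named probe sets brighter than the median. Of the genes in these lists, 35 of 38, 12 of 15 and 16 of 16 were brighter than the median. In knockdown over wildtype 0 genes of these lists passed by limma, and 8 of 54, 4 of 22 and 2 of 28 probe sets had an unadjusted p under 0.05. These were 14.8%, 18.2% and 7.14%, against 10.9% of all probe sets and 14.8% of the brighter ones.

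Ndufaf4, an assembly factor of complex I, read 938.4, 1053.2 and 1007.8 in overexpressed arrays, 729.2, 644.2 and 579.2 in knockdown arrays, and 360.3, 460.3 and 697.2 in wildtype arrays. Overexpressed arrays were above the other 6, by 1.01 ± 0.20 over wildtype (adjusted p = 0.00937), while its dimmer probe set gave 0.44 ± 0.24. Cox20, which handles the mitochondrially made subunit 2 of complex IV, read 379.7, 446.0 and 350.9 in overexpressed arrays, 689.1, 693.9 and 747.9 in knockdown arrays, and 486.0, 612.0 and 630.1 in wildtype arrays. It fell by 0.84 ± 0.13 in overexpressed over knockdown (adjusted p = 0.00502). Its change of -0.53 ± 0.13 in overexpressed over wildtype (adjusted p = 0.0289) was lost in 5 of 18 settings, among them without overexpressed array A or C or wildtype array B or C (adjusted p = 0.0675 to 0.112).

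Cycs, cytochrome c, rose on 1 of 3 probe sets, by 0.68 ± 0.15 in overexpressed over wildtype (adjusted p = 0.0198). Its brightest probe set gave 0.47 ± 0.14 (adjusted p = 0.0632), and the call was lost without overexpressed array B or C (adjusted p = 0.0664 and 0.0707). Coq7, an enzyme of ubiquinone synthesis, rose by 0.68 ± 0.14 (adjusted p = 0.0142), which was lost without overexpressed array A or wildtype array B (adjusted p = 0.0552 and 0.0549).

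Idh3g, a regulatory subunit of the NAD-dependent isocitrate dehydrogenase of the citrate cycle, read 1810.1, 2091.6 and 1867.6 in overexpressed arrays, 2878.1, 3197.5 and 2853.9 in knockdown arrays, and 2868.9, 2715.7 and 2849.6 in wildtype arrays on its dimmer probe set. The overexpressed arrays were far below the other 6. Both probe sets fell in overexpressed over wildtype, at -0.55 ± 0.09 and -0.59 ± 0.12 (adjusted p = 0.00322 and 0.00961). Idh2, the NADP-dependent mitochondrial isocitrate dehydrogenase, read 1217.5, 1176.2 and 1347.9 in overexpressed arrays, 1921.6, 2004.5 and 2227.1 in knockdown arrays, and 2725.1, 2170.7 and 1871.1 in wildtype arrays. It fell by 0.83 ± 0.13 in overexpressed over wildtype (adjusted p = 0.00316), and the calls of both genes held in each of 18 settings, the 1.5-fold limit not counted.

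Of 15 genes that control mitochondrial transcription and biogenesis, 0 rose and 1 fell in overexpressed over wildtype by the brightest probe sets, and 3 rose and 0 fell in overexpressed over knockdown. Their called probe sets were 6.67% of the list against 9.59% of all probe sets, and 13.3% against 7.57%. Of the probe sets brighter than the median, 16.8% and 13.1% were called. The shares of the list include Gabpb1, which passed higher in both comparisons on a probe set other than its brightest. That set gave 0.67 over wildtype (adjusted p = 0.0159, lost in 4 of 18 settings) and 0.54 over knockdown (adjusted p = 0.0469, lost in 9 of 18). Ppargc1b, a coactivator of genes of mitochondrial respiration, read 330.5, 497.1 and 372.7 in overexpressed arrays, 153.5, 149.8 and 72.4 in knockdown arrays, and 417.2, 441.6 and 355.7 in wildtype arrays. Knockdown arrays were below the other 6. It rose by 1.60 ± 0.25 in overexpressed over knockdown (adjusted p = 0.0052), a call that held in each of 18 settings. In knockdown over wildtype it was -1.63 ± 0.25 (adjusted p = 0.0701), which missed the threshold and passed without wildtype array C (adjusted p = 0.0457), with array weights (0.0433) or among probe sets above the 40th percentile (0.0277). Tfam, which acts in the transcription and packing of mitochondrial DNA, rose by 0.39 ± 0.10 in overexpressed over knockdown (adjusted p = 0.0443). This call was lost in 10 of 18 settings (adjusted p = 0.0505 to 0.163). Among them were those without overexpressed array A or B, any 1 knockdown array, or wildtype array B or C.

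**Figure D5:**
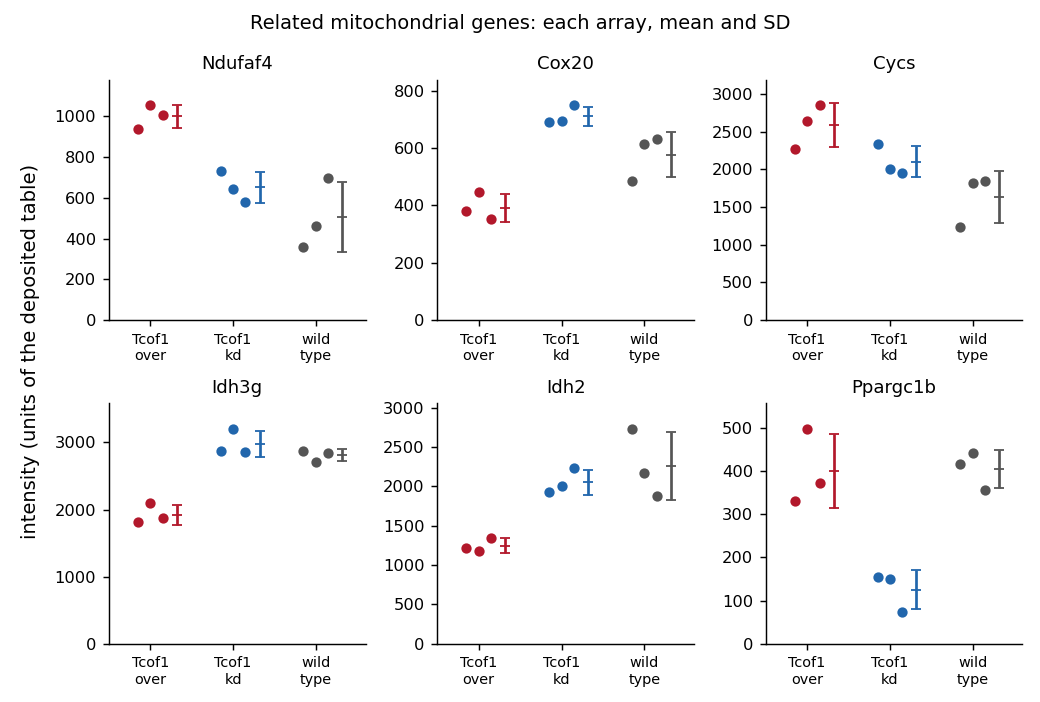
Intensity on each array of 6 related mitochondrial genes, chosen after their values were seen, each by its probe set with the smallest adjusted p. Overexpressed arrays are red, knockdown blue and wildtype grey, with the mean and SD of 3 arrays. Idh3g and Idh2 are lowest in the overexpressed arrays and Ppargc1b is lowest in the knockdown arrays.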

How the data were processed

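The authors deposited linear intensity values, 1 per probe set and array, for 9 one-colour arrays of total RNA. Their software, background correction and scaling: not given in the sources used here. Array medians were 164.1 to 185.95 and the mean without the outer 2% of values was 500.18 to 500.2, so the deposited intensities had been scaled. No detection calls were used. Of 22690 probe sets, 64 controls were left out. Symbols came from the platform annotation: 20380 probe sets had 1, 691 several and 1555 none, and 8 sets with several symbols that include a subunit's were left out. All 80 genes matched RefSeq, with 0 symbols changed.

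Values were taken as log2(intensity + 16), which understates changes of dim probe sets. All 9 arrays were fitted with a mean per group in limma 3.58.1 under R 4.3.3 (lmFit, eBayes with trend). Benjamini-Hochberg adjustment ran over 22626 probe sets per contrast, two-sided, and calls had an adjusted p under 0.05. Fold changes are given as log2 ± SE. A gene stands by its brightest probe set. The fit was tested on simulated data. The number of arrays limits the precision.

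Named by rule were all called subunit probe sets, and up to 2 per complex and comparison with the smallest p. Fixed paralogs and up to 6 called genes per related list were also named by rule. Ndufv1, Ndufs1, Ndufs3, Cyc1, Atp5g1, Atp5g3, Atp5a1 and Atp5b were named outside these rules, with their values known. The members, lists and rules were chosen with earlier results of these data known. Letters did not pair arrays: deviations from group means correlated at -0.0123 to 0.1021 for the same letter and -0.1201 to 0.0985 for others. Alternatives were other pseudocounts, filters, scalings, no trend, array weights, a 1.5-fold limit, a replicate block and each array left out.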

Additional observations from a re-analysis of the deposited data

How the results depend on the processing

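The number of subunit probe sets past the threshold was 5 in overexpressed over wildtype, 0 in knockdown over wildtype, 7 in overexpressed over knockdown and 7 by the F test. In overexpressed over wildtype it was 12 when tested above the 40th percentile of brightness, 8 with array weights, 3 with a common array median or without the _s_at and _x_at kinds, 2 without the mean-variance trend and 1 with a further limit of 1.5-fold. In overexpressed over knockdown it was 11 above the 40th percentile, 3 with a common array median, and 2 without the trend or with the 1.5-fold limit. The F count was 11 with array weights, and 2 with a common array median or without the trend. In knockdown over wildtype it was 0 under every alternative run. With each array left out in turn the counts were 2 to 8 in overexpressed over wildtype, 3 to 9 in overexpressed over knockdown and 3 to 8 by the F test. The letter as a replicate block gave 5, 0 and 7 calls and 4 by the F test, and the letters showed no pairing. The median over the 80 genes with a common array median was 0.0123, 0.0725 and -0.0485 in the 3 comparisons, and -0.0799 in overexpressed over knockdown after quantile normalization. With arrays left out, the median of overexpressed over knockdown was -0.1319 to -0.0791. The cause of these moves was not tested. None of the named probe sets reversed a called direction under these alternatives. Beyond signal over background, which 18 subunit probe sets at or below the median brightness limit, 3 arrays per group limit what small changes can be called.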
